A study of Mus musculus with 7 samples.

Results

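The 10 genes described here are Pecam1, Cdh5, Plvap, Egfl7, Tie1, Tek, Angpt2, Kdr, Flt1 and Vegfa, which mark the endothelium of the adrenal gland or carry its main growth signals. They were chosen by symbol, and 10 of 10 were found among the 35976 genes of the expression table. RNA of whole adrenal glands from the inbred mouse strain C57BL/6J was sequenced, with 1 library for each of 7 pools: E18.5 (a late embryonic stage, 40 glands, sex not determined), P1 male (postnatal day 1, 16 glands), P1 female (22 glands), 2-week male and 2-week female (6 glands each), and 12-week male and 12-week female (4 glands each). No treatment or transgene is given for any pool. Because each pool gave 1 library, no combination of age and sex had a replicate. The question addressed by the design is how adrenal transcripts differ between ages and between the sexes.

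The adrenal gland is among the most densely vascularized organs, and its cortical cells lie beside fenestrated capillaries and sinusoids through which steroid hormones leave the gland. Vegfa, secreted by parenchymal cells, binds the receptors Kdr (VEGFR2), which drives endothelial growth, and Flt1 (VEGFR1), which binds Vegfa tightly and limits what reaches Kdr. The receptor tyrosine kinase Tek (Tie2) is activated by Angpt1 and, in most settings, opposed by Angpt2, a ligand released by endothelium that is being remodelled, while Tie1 is a partner of Tek without a well-established ligand of its own.

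Upstream sequences are shown for Flt1, Tek and Vegfa, the members with a promoter window at hand whose levels differed between P1 and 12 weeks in the test given further on. The set of RefSeq promoter windows used here (GRCm38.p6) covered 6 of the 10 genes, with 9 windows in all. That set held none for Pecam1, Cdh5, Plvap and Angpt2, and whether RefSeq itself has start sites for them was not looked up. Each sequence is the 250 bases before the gene's start, written 5′ to 3′ on the gene's strand, with capitals marking any searched motif. The Flt1 window is chr5:147726012-147726261 on the minus strand, the Tek window chr4:94739039-94739288 on the plus strand and the Vegfa window chr17:46032378-46032627 on the minus strand.
Flt1: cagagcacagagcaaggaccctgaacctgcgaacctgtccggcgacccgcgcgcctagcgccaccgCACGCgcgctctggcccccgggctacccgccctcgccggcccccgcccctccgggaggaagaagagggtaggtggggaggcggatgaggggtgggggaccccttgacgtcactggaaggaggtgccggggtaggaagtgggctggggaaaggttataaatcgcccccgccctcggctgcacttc
Tek: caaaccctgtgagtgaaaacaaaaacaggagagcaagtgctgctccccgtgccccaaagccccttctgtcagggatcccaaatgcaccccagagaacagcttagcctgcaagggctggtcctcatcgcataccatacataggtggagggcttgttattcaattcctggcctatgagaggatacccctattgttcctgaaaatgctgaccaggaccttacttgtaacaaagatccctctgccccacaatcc
Vegfa: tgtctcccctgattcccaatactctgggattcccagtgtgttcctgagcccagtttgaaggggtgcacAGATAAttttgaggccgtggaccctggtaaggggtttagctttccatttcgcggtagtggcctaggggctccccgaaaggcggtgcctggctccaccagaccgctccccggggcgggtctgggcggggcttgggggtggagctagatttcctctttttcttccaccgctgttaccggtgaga
Motifs were searched on both strands. A first ETS motif was CCGGAAG, a further one CAGGAAG, and a last one, which shares letters with the one before it, ACAGGAA. The GATA motif was AGATAA. For the hypoxia response the cores ACGTG and, separately, GCGTG were searched, and for FOX factors TGTTTAC. The capitals in the Flt1 window mark GCGTG on the opposite strand, and those in the Vegfa window mark AGATAA. The set also had a further Vegfa window, chr17:46025164-46025413, within the bounds of the gene, which is not printed and held both hypoxia cores. Both cores thus lie inside the gene and not before its outer start, and the printed Vegfa window held neither. None of these letters occurred in the Tek window. Among 32851 windows of the same length, 28.2% held the core GCGTG and 16.6% the core ACGTG. The GATA motif was in 9.99%, the FOX motif in 3.17% and at least 1 ETS motif in 20.7% (6.91%, 10.8% and 7.2% for the ETS motifs in the order given). Of the 9 member windows, 3 held an ETS motif, in Egfl7 and Tie1. These are letter matches only and were not set against any binding data.

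Egfl7 is the host gene of the endothelial microRNA miR-126. The mature miR-126a-3p lies at chr2:26591402-26591423 on the plus strand (RefSeq, GRCm38.p6), inside the Egfl7 gene, and is shown with its seed, bases 2 to 8, in capitals.
mmu-miR-126a-3p: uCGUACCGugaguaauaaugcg
The Mir126a row of the table held 0 to 5.59 normalized counts in the 7 libraries and was not analysed further.

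Library depth was 15184210 to 23551289 reads in genes. A normalized count is the number of reads of a gene after division by the size factor of its library, and 1 read was worth 0.818 to 1.40 normalized counts. The 24 other endothelial genes used as a reference list, such as Emcn, Erg and Cd34, all had reads in every library, and their summed level was 17439 to 24680 normalized counts. Marker lists of the adrenal cortex (10 genes) and medulla (9 genes) also had reads for every gene in every library, but their sums were not level. The cortex list was at 623305 normalized counts in E18.5, and at 431209 and 260021 in P1 male and female. It was at 539464 and 543051 at 2 weeks, and at 867269 and 1141350 at 12 weeks. The medulla list went from 42172 in E18.5 to 125744 in 2-week male, with 48165 and 93545 in P1 male and female. Transcripts of other tissues differed strongly with age. The summed liver list (8 genes) was 292266 to 439835 normalized counts in the E18.5 and P1 libraries. It was 16841 and 41676 at 2 weeks, and 8044 and 6211 at 12 weeks, male first. Trf alone made up 7610 and 5790 of the 12-week sums, while Alb was at 247 and 157. The adipocyte list (8 genes) went the other way, from 1516 to 1750 in the 3 youngest libraries to between 25909 and 38315 in the 4 older ones. Kidney markers (8 genes) were highest in P1 male at 9039 and were below 66 in each later library, where 3 to 7 of the 8 were listed at 0. Exocrine pancreas markers (7 genes) were at 6875 in P1 male against 127 to 409 in the other 6 libraries, where Cpb1 alone gave 101 to 407. Skeletal muscle markers (8 genes) differed within the 2-week pair, at 186 in male and 8299 in female. The P1 female library held transcripts of 4 of 4 Y-linked genes, summed to 1273 normalized counts against 6135 in P1 male and at most 4.41 in the 2 later female libraries. This goes against its label, and it is called P1 female here only after that label. The part of these differences in the results below was not tested. In whole tissue, fewer endothelial cells and less RNA per cell cannot be told apart.

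**Figure D1:**
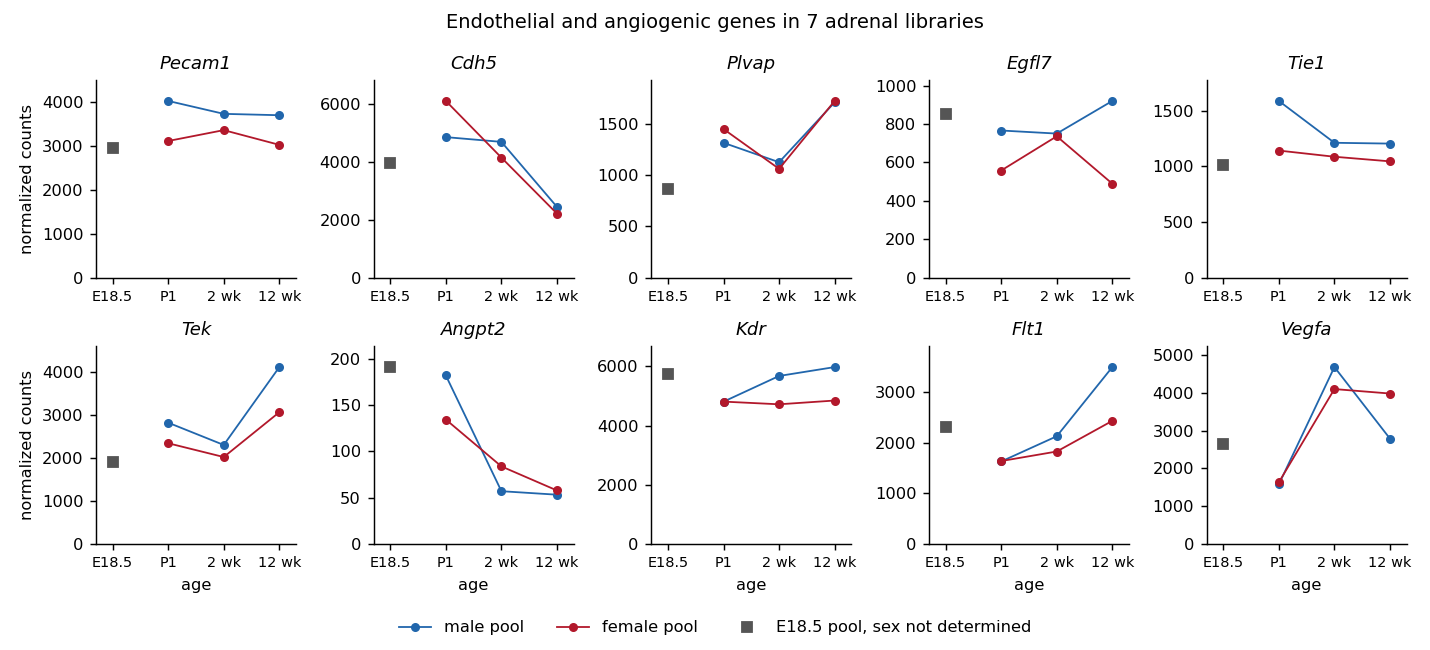
Normalized counts (vertical axis, each panel with its own scale from 0) of the 10 genes at each age, with 1 point per library, blue for male, red for female and a grey square for E18.5. Vegfa was higher at 2 weeks than at P1 in both sexes, Cdh5 was lowest at 12 weeks, Angpt2 was lower at 2 and 12 weeks than before, and Kdr stayed between 4718 and 5978 throughout.

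Levels between genes were compared per kilobase of exon (GENCODE M21 exon union). Cdh5 had the highest level per kilobase in each of the 5 libraries up to 2 weeks, at 946 in E18.5, 1158 and 1456 at P1, and 1118 and 988 at 2 weeks. At 12 weeks it ranked 6 of 10 in the male and 5 of 10 in the female library, at 582 and 527 normalized counts per kilobase, and the highest level was that of Tek in the male library (872) and of Vegfa in the female library (930). Kdr, Pecam1, Plvap and Tek lay between 406 and 872 per kilobase in the 7 libraries, and their order changed from library to library. Means over the 7 libraries, with their SD, were 579 ± 60.5 for Kdr, 562 ± 162 for Tek and 547 ± 66.1 for Pecam1. This SD spans the ages and sexes and is not a measurement error. The differences between these means were not tested. Tie1, Egfl7 and Flt1 were lower, at means of 241 ± 39.3, 202 ± 42.7 and 163 ± 48.1. Angpt2 was the lowest of the 10 in every library, at 14.4 to 51.9 per kilobase.

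Age differences after birth were tested with limma on log2(normalized count + 1), with age and sex as terms, over the 6 postnatal libraries and over 16720 genes, those whose mean was 10 normalized counts or more. All 10 members were among them. The 2 libraries of an age differ in sex, so the error of each difference rests on 2 residual degrees of freedom, moderated over all genes, and on pools rather than on animals. A gene was counted as changed at a Benjamini-Hochberg adjusted p under 0.05 over all genes, two-sided, and differences are later minus earlier on the log2 scale, ± SE. Between P1 and 2 weeks 1 of the 10 changed, where 16.4% of all genes did. Between 2 and 12 weeks 3 of the 10 changed, against 15.3% of all genes. Between P1 and 12 weeks 5 of the 10 changed, 3 higher and 2 lower, against 41.2% of all genes (17.6% higher and 23.5% lower), a share near the background. The median difference of the 10 genes from P1 to 12 weeks was 0.10, beside -0.03 for all genes tested. Of the 5 calls, that of Cdh5 was kept without each library in turn and the other 4 were lost in at least 1 such fit. Without P1 male only Cdh5 was called, in a fit that called 3596 of all 16720 genes, and without P1 female, the library with Y-linked transcripts, 3 members were (Cdh5, Flt1 and Angpt2), in a fit that called 3207. Fits without 1 library also called few genes of any kind in the shorter intervals: from P1 to 2 weeks 2 genes in all without P1 male, 28 without P1 female and 201 without 2-week male, and from 2 to 12 weeks 532 without 2-week male and 421 without 2-week female.

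Among the structural genes of endothelium, Cdh5 fell while Pecam1 did not pass the test. Cdh5 encodes VE-cadherin, the adhesion molecule of endothelial junctions (chr8:104101625-104144511, plus strand). Its level was 3976 normalized counts in E18.5, 4865 and 6120 in P1 male and female, 4700 and 4154 at 2 weeks, and 2447 and 2214 at 12 weeks, male first. Both 12-week libraries lay below the other 5. Cdh5 fell by 0.92 ± 0.175 from 2 to 12 weeks (limma adjusted p = 0.0186) and by 1.23 ± 0.175 from P1 to 12 weeks (limma adjusted p = 0.00257), which is 0.427 of its P1 level. The second call held without each of the 6 libraries in turn, while the first was lost without either 2-week library (limma adjusted p = 0.217 without 2-week male and 0.110 without 2-week female). From P1 to 2 weeks the difference of -0.30 ± 0.175 did not pass the test (limma adjusted p = 0.282).

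Pecam1 encodes CD31, the platelet and endothelial cell adhesion molecule (chr11:106654217-106750628, minus strand). It was measured at 2941 normalized counts in E18.5, 4018 and 3106 in P1 male and female, 3724 and 3353 at 2 weeks, and 3692 and 3019 at 12 weeks. The male library had the higher value at each age, and the ages overlapped. Its difference from P1 to 12 weeks was -0.08 ± 0.142 (limma adjusted p = 0.672), and under upper-quartile scaling its sign turned (0.03). Cdh5 over Pecam1, a ratio of normalized counts within a library, was 1.21 to 1.97 in the 5 libraries up to 2 weeks and 0.663 and 0.734 at 12 weeks. So these 2 junction genes, both used as general endothelial markers, did not keep a fixed ratio across ages.

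Plvap encodes the protein of the diaphragms that span the fenestrae of capillaries (chr8:71497765-71511752, minus strand). The level of Plvap was 868 normalized counts in E18.5, 1319 and 1454 in P1 male and female, 1129 and 1064 at 2 weeks, and 1716 and 1729 at 12 weeks. The 12-week pair was above every other library and E18.5 below every other. Plvap rose from 2 to 12 weeks by 0.65 ± 0.144 (limma adjusted p = 0.030), a call that was lost without any 1 of the 6 libraries (limma adjusted p from 0.0537 to 0.264) and with library totals set equal (0.48, limma adjusted p = 0.0615). The difference from P1 to 12 weeks was 0.31 ± 0.144 and did not pass the test (limma adjusted p = 0.124), although the P1 and 12-week values did not overlap. Plvap overlaps Gtpbp3 on the opposite strand, which had 163 to 214 normalized counts, and whether the counting used strand is not given in the sources used here.

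Egfl7 encodes a secreted endothelial protein involved in vessel tube formation (chr2:26580014-26593120, plus strand). Its normalized counts were 851 in E18.5, 766 and 557 in P1 male and female, 750 and 736 at 2 weeks, and 920 and 489 at 12 weeks. The highest and the lowest of the 7 values were the male and female libraries of 12 weeks, and no age comparison passed the test, with a P1 to 12 week difference of 0.04 ± 0.228 (limma adjusted p = 0.907) that turned negative with equal totals (-0.08) or without 12-week male (-0.30). Agpat2, on the opposite strand, overlaps Egfl7 and had 954 to 1123 normalized counts up to P1 and 2560 to 2907 later, so reads of both genes may be mixed if strand was not used.

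In the angiopoietin pathway the receptor Tek was highest at 12 weeks, and the ligand Angpt2 was lower at 12 weeks than at P1. Tek (chr4:94739289-94874976, plus strand) had 1911 normalized counts in E18.5, 2816 and 2338 in P1 male and female, 2298 and 2017 at 2 weeks, and 4111 and 3060 at 12 weeks. Both 12-week values exceeded all others. The increase from 2 to 12 weeks was 0.72 ± 0.142 (limma adjusted p = 0.0213). Without single libraries this call was lost in 5 of 6 cases and kept only without 12-week female (limma adjusted p from 0.0562 to 0.247 in the 5). From P1 to 12 weeks Tek rose by 0.47 ± 0.142 (limma adjusted p = 0.0389), a call lost in the same 5 cases (limma adjusted p from 0.0956 to 0.195), and with equal totals (0.35, limma adjusted p = 0.0909).

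Angpt2 (chr8:18690263-18741562, minus strand) was the least abundant member, with 38 to 228 reads per library. It had 192 normalized counts in E18.5, 182 and 135 in P1 male and female, 56.9 and 83.8 at 2 weeks, and 53.1 and 57.7 at 12 weeks. The 3 libraries up to P1 all lay above the 4 later ones. Angpt2 fell by 1.48 ± 0.322 from P1 to 12 weeks (limma adjusted p = 0.0119), to 0.357 of its P1 level, a call that was lost without P1 male (limma adjusted p = 0.124). The difference from P1 to 2 weeks, -1.17 ± 0.322, missed the threshold (limma adjusted p = 0.0542) and passed it with DESeq2 on the recovered reads (adjusted p = 0.0460). Mcph1, on the opposite strand, overlaps Angpt2 and had 383 to 508 normalized counts, with its lowest values after P1 as well.

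Tie1 (chr4:118471191-118490061, minus strand) was measured at 1015 normalized counts in E18.5, 1589 and 1142 in P1 male and female, 1212 and 1087 at 2 weeks, and 1205 and 1045 at 12 weeks. The P1 male library stood above the other 6, which spanned 1015 to 1212. No age difference of Tie1 passed the test, and that from P1 to 12 weeks was -0.26 ± 0.154 (limma adjusted p = 0.211). Tie1 over Tek was 0.489 to 0.564 in the 5 libraries up to 2 weeks and 0.293 and 0.342 at 12 weeks. Angpt2 over Tek went from 0.1 in E18.5 and 0.0648 and 0.0576 at P1 to 0.0129 and 0.0189 at 12 weeks. Angpt2 over Angpt1, the activating ligand, was 1.30 in E18.5, 0.772 and 0.598 at P1, and 0.179 to 0.258 in the 4 later libraries. These ratios are of normalized counts and not corrected for gene length, so only their course over age can be read.

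In the VEGF pathway Kdr was nearly level, Flt1 was highest at 12 weeks and Vegfa rose between P1 and 2 weeks. Kdr (chr5:75932827-75978458, minus strand) had 5742 normalized counts in E18.5, 4807 and 4809 in P1 male and female, 5677 and 4718 at 2 weeks, and 5978 and 4846 at 12 weeks. Its highest value was 1.27 times its lowest, the narrowest range of the 10 genes. The P1 to 12 week difference was 0.16 ± 0.153 (limma adjusted p = 0.426).

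Flt1 (chr5:147561604-147726011, minus strand) had 2300 normalized counts in E18.5, 1626 and 1635 in P1 male and female, 2125 and 1824 at 2 weeks, and 3494 and 2430 at 12 weeks. The 12-week libraries were the 2 highest and the P1 libraries the 2 lowest. Flt1 rose from P1 to 12 weeks by 0.84 ± 0.170 (limma adjusted p = 0.00942), a 1.79-fold increase, and without P1 male it missed the threshold (0.65, limma adjusted p = 0.0776). Between 2 and 12 weeks its difference of 0.57 ± 0.170 did not pass (limma adjusted p = 0.0711) but did without 12-week female (0.77, limma adjusted p = 0.0225). Flt1 over Kdr was 0.338 to 0.400 in the 5 libraries up to 2 weeks and 0.584 and 0.502 at 12 weeks.

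Vegfa (chr17:46016993-46032369, minus strand) had 2640 normalized counts in E18.5, 1574 and 1628 in P1 male and female, 4687 and 4103 at 2 weeks, and 2787 and 3985 at 12 weeks. The 2 P1 values were the lowest of all, and the 2-week values the highest. Vegfa rose from P1 to 2 weeks by 1.45 ± 0.195 (limma adjusted p = 0.00671), a 2.74-fold increase, and this was the only call among the 10 genes in that interval. It was lost without P1 male (limma adjusted p = 0.105), P1 female (0.103) or 2-week male (0.0936), with differences of 1.22 to 1.51. At 12 weeks Vegfa was still 1.06 ± 0.195 above P1 (limma adjusted p = 0.00653), lost without P1 male or P1 female (limma adjusted p = 0.0660 and 0.0849), and its difference from 2 to 12 weeks was -0.40 ± 0.195 (limma adjusted p = 0.214). The adipocyte list rose in the same interval as Vegfa. Of its 8 genes 7 were called higher at 2 weeks than at P1, where 985 of all 16720 genes were. The cortex list had 2 of 10 genes called higher and 0 lower there (median 0.575). In the medulla list 1 of 9 was called higher and 0 lower (median 0.40). The part of these lists in the Vegfa values was not tested. Vegfa over Kdr was 0.328 and 0.339 at P1 and 0.826 and 0.870 at 2 weeks.

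**Figure D2:**
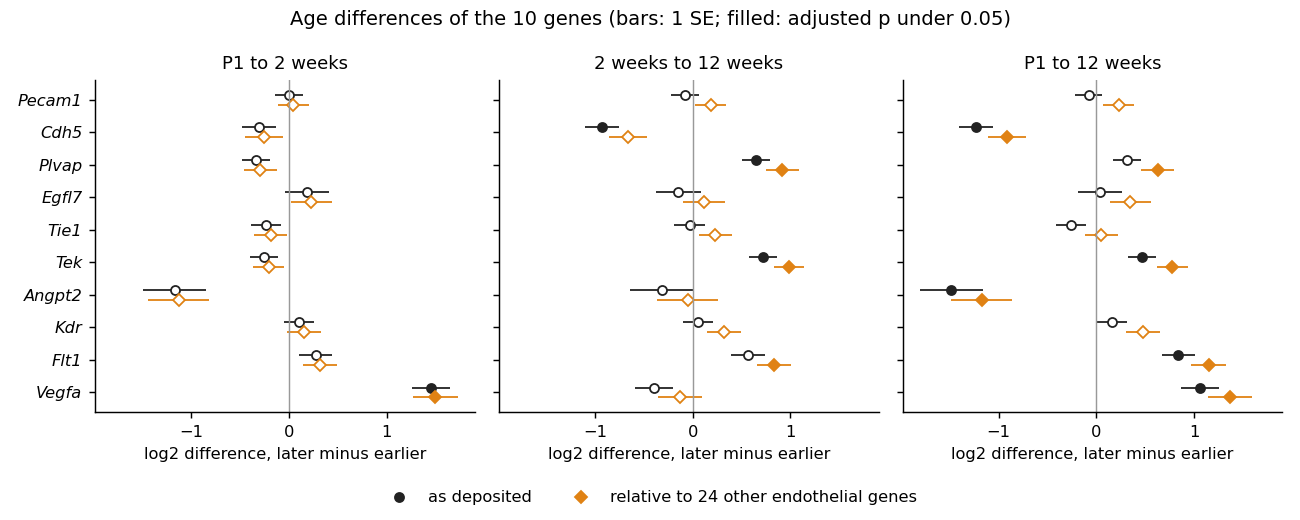
Log2 differences (horizontal axis, later minus earlier) of the 10 genes in 3 age comparisons, with bars of 1 SE and filled symbols for a limma adjusted p under 0.05, as deposited (black circles) and relative to 24 other endothelial genes (orange diamonds). Cdh5 and Angpt2 lay furthest below 0 and Vegfa furthest above 0 from P1 to 12 weeks on both scales.

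To describe the members relative to other endothelial genes, the same fit was made after subtracting from each library its mean log2 level of the 24 reference genes. From P1 to 2 weeks 1 member changed on this relative scale (Vegfa, 2.83-fold, limma adjusted p = 0.00748), beside 16.4% of all genes, and this call was lost without 2-week male (limma adjusted p = 0.0905). From 2 to 12 weeks Flt1 (0.83 ± 0.176), Tek (0.98 ± 0.155) and Plvap (0.92 ± 0.166) rose, 3 of 10 beside 20.5% of all genes, with limma adjusted p = 0.0203, 0.00806 and 0.0128. All 3 of these calls were lost without either 2-week library. Cdh5 had a relative difference of -0.66 ± 0.194 there and did not pass (limma adjusted p = 0.0527). From P1 to 12 weeks 6 of 10 changed beside 48.2% of all genes: Flt1 (1.15), Vegfa (1.37), Tek (0.78) and Plvap (0.62) were higher, and Cdh5 (-0.92) and Angpt2 (-1.17) lower. Without P1 male or P1 female 4 were called, and Plvap was among those lost in both cases, as it was without 12-week female, while Angpt2 was lost without P1 male and Cdh5 without P1 female. Pecam1, Tie1, Egfl7 and Kdr had relative differences of 0.23, 0.05, 0.35 and 0.47 and did not pass. The reference genes themselves were not level, since 3 of the 24 were higher and 8 lower at 12 weeks than at P1 (median -0.26), and only 3 were lower without P1 male or either 2-week library, 4 without P1 female. The count higher was 1 without either P1 library.

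The interval around birth has 1 library at E18.5, so its differences carry no test, and the 95% intervals given are exact binomial intervals on reads that cover counting error only. Both ratios of a gene share the E18.5 library. No member was at least 2-fold apart the same way in both P1 libraries, where 5.15% of all genes were. Vegfa was at 0.596 (0.563 to 0.631) of its E18.5 level in P1 male and 0.617 (0.579 to 0.656) in P1 female. Flt1 was at 0.707 and 0.711, and Kdr at 0.837 and 0.838, so the ligand and both of its receptors were lower in both P1 libraries than in E18.5. Plvap was at 1.52 (1.40 to 1.64) and 1.67 (1.54 to 1.82) times its E18.5 level. Tek was at 1.47 and 1.22 times, Tie1 at 1.57 and 1.13, Cdh5 at 1.22 and 1.54, and Pecam1 at 1.37 and 1.06. The gaps between the 2 P1 ratios of Tie1, Cdh5 and Pecam1 were larger on the log2 scale than the distance of the nearer one from E18.5. Egfl7 was at 0.90 and 0.655 of E18.5, and Angpt2 at 0.953 (0.788 to 1.15) and 0.703 (0.560 to 0.880).

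No member was called between the sexes in the limma fit over the 3 ages, where 1 gene in all was called (0.00598% of those tested), lower in male. The same fit called 0 of the 4 Y-linked genes, whose median male minus female difference was 7.74. A lack of calls in this fit therefore does not show that the sexes were alike. At an unadjusted p under 0.05 there were 2 members, Tek (male minus female 0.29 ± 0.116) and Egfl7 (0.47 ± 0.186), each with a limma adjusted p = 0.999 and each higher in the male library at 3 of 3 ages. The edgeR and DESeq2 fits on the recovered reads called 0 members as well, with 2 and 3 members at an unadjusted p under 0.05. Between single libraries no member was 2-fold apart at P1 (6.78% of all genes were), at 2 weeks (4.24%) or at 12 weeks (8.83%). The widest ratio was that of Egfl7 at 12 weeks, 1.88 male over female (1.66 to 2.13), after 1.37 at P1 and 1.02 at 2 weeks. At 12 weeks Flt1 was at 1.44 (1.36 to 1.52) and Tek at 1.34 (1.27 to 1.42) male over female, while Vegfa was at 0.699 (0.662 to 0.739). These intervals compare 2 libraries and not the sexes. The P1 ratios are also those of a female library with Y-linked transcripts.

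Other genes of vessel growth were taken from lists, and counts are of genes changed from P1 to 12 weeks by the limma test used above. Of all genes tested 17.6% were higher and 23.5% lower there, the background for each list count. Among 7 measured VEGF ligands and receptors outside the 10, Vegfd, a ligand of the lymphatic receptor Flt4, rose by 1.17 ± 0.176 (limma adjusted p = 0.00304), from 533 and 560 normalized counts at P1 to 1022 and 1484 at 12 weeks. The other lymphatic ligand, Vegfc, fell by 0.91 ± 0.245 (limma adjusted p = 0.0260), and Pgf, the placental growth factor gene, named after its values were seen, fell to 22.4 and 26.0 normalized counts. Both falls were lost in most fits without 1 library (0 of the 7 genes lower without P1 male, P1 female, either 2-week library or 12-week male, and 1 without 12-week female). The Vegfc and Vegfd receptor Flt4 was at 880 to 1190 normalized counts in all 7 libraries. In the angiopoietin list 1 of 7 rose and 1 fell, with 4 lower when 12-week male was left out. Ptprb, the endothelial phosphatase that acts on Tek, rose by 0.71 ± 0.195 (limma adjusted p = 0.0275), with 2890 and 3257 normalized counts at P1 and 6036 and 4180 at 12 weeks, a call kept only without 12-week female among the 6 fits without 1 library. Angptl1 fell by 1.63 ± 0.224. Angpt1, named outside the rule as the ligand of Tek, differed by 0.07 ± 0.186.

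The list of Notch pathway and sprouting tip cell genes had 8 of 14 lower and 0 higher at 12 weeks than at P1, with a median of -0.96, beside 23.5% of all genes lower. Without P1 female 2 of the 14 were lower, and without the other libraries 7 to 10. Without 12-week female 3 were higher. Aplnr, the apelin receptor, fell by 2.69 ± 0.291 (limma adjusted p = 9.33e-04), from 1938 and 1203 normalized counts at P1 and 1857 and 1701 at 2 weeks to 386 and 144 at 12 weeks. Jag2, a Notch ligand, fell by 1.69 and Hey2, a Notch target of arterial endothelium, by 1.60.

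At 12 weeks 14 of the 14 Notch and tip cell genes had the higher value in the male library, 5 of them at least 2-fold, where 4.84% of all genes were at least 2-fold higher in male. The 5 were Aplnr and Hey2, with Dll4, Esm1 and Apln, which are named after their values were seen. Dll4, the Notch ligand of sprouting tip cells, had 425 normalized counts in the 12-week male and 152 in the 12-week female library, a ratio of 2.80. Before that the female library had been the higher, with 220 against 175 at P1 and 283 against 229 at 2 weeks. Esm1, a secreted product of tip cells that Vegfa induces, was at 870 and 311, and Apln, the apelin ligand, at 362 and 156. In the same pair of libraries Vegfa itself was lower in male. The median male minus female difference of the list was 0.52 at 12 weeks and 0.14 at 2 weeks, beside 0.02 and nearly 0 for all genes. At P1 the list ran the other way, with a median of -0.15 and 3 of 14 genes higher in male. The endothelial reference list had a median of 0.26 at 12 weeks, with 20 of 24 genes higher in male and 0 of them 2-fold. Some other vessel lists had 12-week medians like that of the Notch list: 0.58 for arterial, 0.53 for venous and 0.51 for angiopoietin genes. The medians of the VEGF list (-0.16) and the basement membrane list (-0.05) were below 0. A raised median was thus not particular to Notch and tip cell genes. At least 2-fold higher in male were 2 of 8 arterial, 0 of 6 venous and 1 of 7 angiopoietin genes. Among venous genes named after their values were seen, Selp had only 8.39 and 5.66 normalized counts. The more abundant Nr2f2 and Ephb4 were at 0.996 and 1.05 male over female. Some lists of other cells were also mostly higher in 12-week male. These were 7 of 7 erythroid genes (4 at least 2-fold, median 1.32), 7 of 8 macrophage genes (median 0.43), 6 of 8 liver genes (median 0.57) and 6 of 8 adipocyte genes (median 0.38). Of the liver genes Serpina1a and Ttr, named after their values were seen, were at most at 12.6 normalized counts. Other lists ran the other way. Higher in male were 1 of 5 platelet genes (median -0.81), 4 of 10 cortex genes (-0.35), 2 of 10 cell cycle genes (-0.25) and 4 of 9 medulla genes (-0.12). The part of these cells in the Notch and tip cell values was not tested. These are differences between 2 pools of 4 glands each and have no replicate check.

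**Figure D3:**
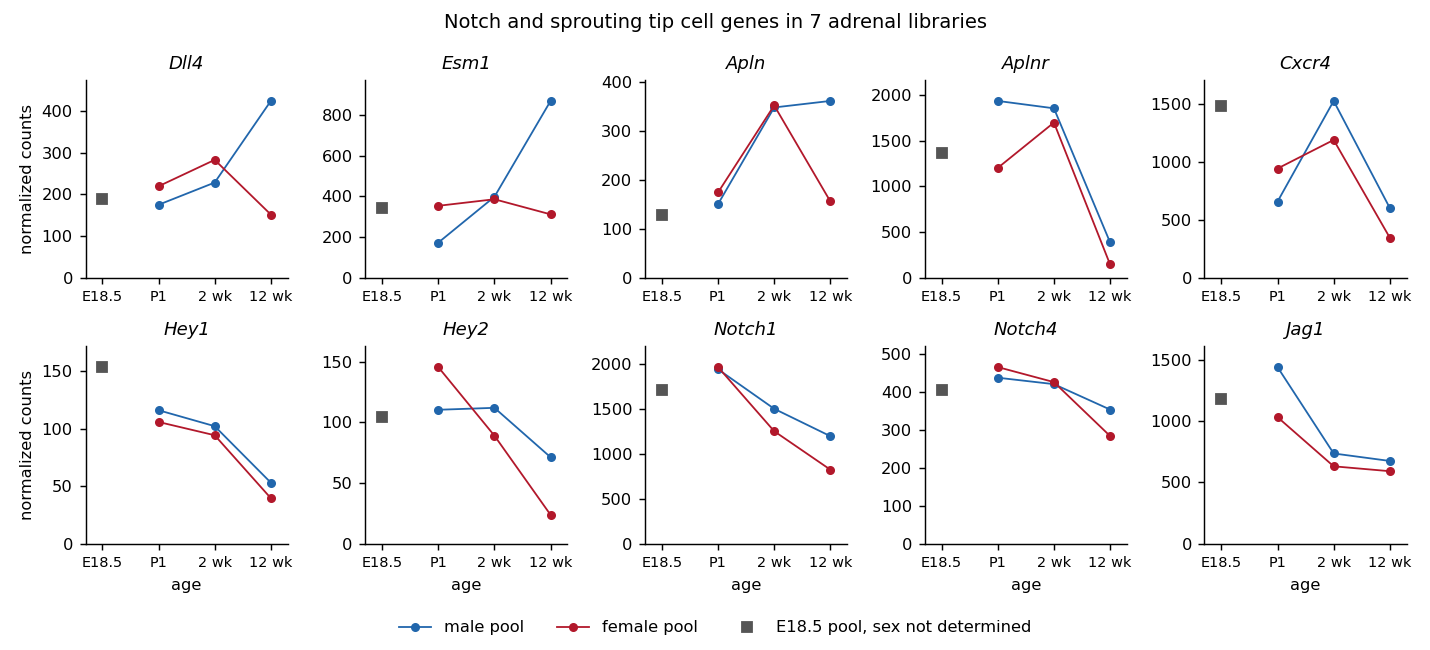
Normalized counts (vertical axis, each panel with its own scale from 0) of 10 Notch and tip cell genes, chosen after their values were seen, by age, with 1 point per library, blue for male, red for female and a grey square for E18.5. At 12 weeks the male point is above the female point in each panel, by 2.80 times for Dll4, while Aplnr, Hey1 and Notch1 are lower at 12 weeks than at P1 in both sexes.

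Each list of vessel subtypes had more falls than rises, as all genes tested did (23.5% lower and 17.6% higher). The lists were not tested against each other or against that share. Of 8 arterial genes 5 fell and 1 rose. Gja5 and Gja4, connexins of arterial endothelium, fell by 2.05 and fell by 2.01, and 1 arterial gene was still lower without P1 male, 3 without P1 female. The single rise among them was called in none of the 6 fits without 1 library. Of 6 venous genes 3 fell and 1 rose. Sele, the E-selectin gene of activated venules, rose by 1.79 ± 0.368 (limma adjusted p = 0.00981), from 12.3 and 16.6 normalized counts at P1 through 128 and 124 at 2 weeks to 64.3 and 41.9 at 12 weeks, and lost its call without P1 male. The 3 falls came to 1 without P1 female, either 2-week library or 12-week female, and to 5 without 12-week male.

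Of 12 sinusoidal and capillary genes 3 rose and 5 fell, where 17.6% of all genes rose and 23.5% fell. Rgcc, a gene of capillary endothelium, rose by 1.99 ± 0.240, and Stab2, a scavenger receptor of sinusoids, fell by 5.88 ± 0.340 (limma adjusted p = 1.50e-04), from 1079 and 1085 normalized counts at P1 to 22.4 and 13.6 at 12 weeks. Of 6 measured lymphatic genes 4 fell, in each of the 6 fits without 1 library as well. Reln, an extracellular matrix protein, fell by 5.23. Lyve1, the hyaluronan receptor of lymphatic vessels and also of liver sinusoids, fell by 4.54. Among genes named after their values were seen, Prox1, the lymphatic transcription factor that is also made in the liver, differed by 0.26 ± 0.155 (limma adjusted p = 0.221), and Ccl21a was listed at 0 in every library. Stab2 and Lyve1 mark liver sinusoids, and 8 of 8 liver genes fell over the same interval. Their part in these falls was not tested. Without P1 male 2 of the 12 sinusoidal and capillary genes fell and 2 rose.

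Genes of cells and matrix around the endothelium had lower levels at 12 weeks than at P1, where 23.5% of all genes were lower. All 9 basement membrane genes fell from P1 to 12 weeks (median -1.60), 5 of them without P1 female and 7 to 9 without each other library. Nid2, a nidogen, fell by 2.63 ± 0.141, from 3562 and 3787 normalized counts at P1 to 590 and 596 at 12 weeks. Of 15 pericyte and smooth muscle genes 10 fell and 0 rose, 8 to 11 without single libraries. Cnn1, a smooth muscle protein, fell by 4.46, and Des, which is also made in skeletal muscle, fell by 3.22. Skeletal muscle markers, 8 of 8 of which fell, were summed to 79784 and 147020 normalized counts at P1 and to 54.5 and 53.2 at 12 weeks, and their part in the Des values was not tested. Of 13 genes listed as inhibitors or guidance cues of vessel growth 11 fell (median -1.67), 8 without P1 female and 7 without P1 male. Vash2, a vasohibin, fell by 4.82 ± 0.412 (limma adjusted p = 4.14e-04), from 254 and 185 normalized counts at P1 through 35.6 and 45.0 at 2 weeks to 9.79 and 4.53 at 12 weeks. Sema3a, a repulsive guidance cue, and Thbs2, a thrombospondin, had most of their fall before 2 weeks, with differences of -3.36 and -2.73 there and of -4.35 and -3.47 by 12 weeks. Prok1, a member of that list named after its values were seen, is a growth factor for endothelium of steroid-making glands and not an inhibitor, and it fell as well, from 13.1 and 46.4 normalized counts at P1 to 1.40 and 1.13, under the floor of 3 reads.

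Among 11 measured hypoxia response genes 1 rose and 1 fell from P1 to 12 weeks, where 17.6% of all genes rose and 23.5% fell. Vegfa, itself a hypoxia target, rose as well. Pfkfb3, a regulator of glycolysis in endothelium and other cells, rose by 1.66 ± 0.202 (limma adjusted p = 0.00145), from 380 and 427 normalized counts at P1 to 1053 and 1234 at 2 weeks. Egln3, an oxygen-sensing hydroxylase, fell by 1.79 ± 0.419 (limma adjusted p = 0.0158), a call lost without P1 male or P1 female. The count that rose was 2 without P1 male or 12-week male. The other 9 did not pass. Cell cycle genes were called lower at 12 weeks than at P1 in 10 of 10 cases (median -3.93). From P1 to 2 weeks 0 of 10 were called, where 1752 of all 16720 genes were called lower. Of these 10 differences 7 were negative (median -0.10).

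**Figure D4:**
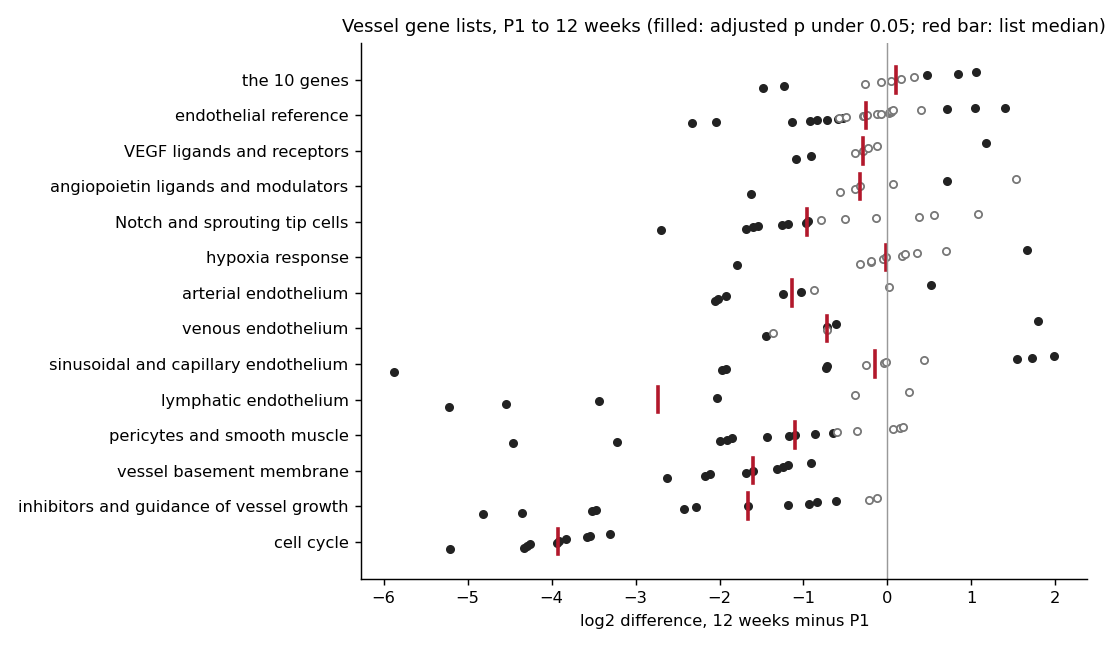
Log2 differences from P1 to 12 weeks (horizontal axis) of the genes in 14 lists, 1 point per gene, filled for a limma adjusted p under 0.05, with a red bar at each list's median. The 10 genes described here have a median of 0.10, while the basement membrane list lies wholly below 0 with a median of -1.60.

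Similarity of profiles was described over the 7 libraries by Pearson r, with no p, since all profiles share the same libraries and size factors. Among the 10 genes the closest pairs were Pecam1 with Tie1 (r = 0.872) and Tek with Plvap (r = 0.865). Cdh5 ran opposite to Flt1 (r = -0.821), and Vegfa opposite to Angpt2 (r = -0.733). Of 12245 other genes whose mean was 100 normalized counts or more, those closest to the mean of the 8 endothelial members (all but Vegfa and Angpt2) were Zfx (r = 0.942), LOC108168395, Zfp33b, Frk, Susd3, Cd200, Rbm12 and Fam104a (r = 0.887). Susd3 was at 984 normalized counts in 12-week male and at 27.2 to 133 in the other 6 libraries, so its r rests on 1 library. Each of the others was also highest in 12-week male, such as Cd200 (1222) and Frk (854). No gene of the endothelial reference list was among them. The 8 members did not share a profile either (Cdh5 with Tek r = -0.643), so their mean should not be read as an endothelial profile. Closest to Vegfa were Ptgr2 (r = 0.996), Casd1, Efhd1 and Hspa14 (r = 0.970). Closest to Angpt2 were Ugp2 (r = 0.997), Cdr2, Dennd4b and Lum (r = 0.993).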

How the data were processed

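Total RNA of 7 pools of adrenal glands was sequenced, 1 library per pool. Per the submitters' processing notes, CASAVA 1.8.2, HISAT2 2.1.0, HTSeq 0.9.1, DESeq2 2.11.40.6 and the build mm10 were used. The annotation and the use of strand are not given in the sources used here. The authors deposited a signal of counts divided by 1 size factor per library; whole reads were recovered from it with a largest deviation of 0.000284 reads. Members, lists and tests were chosen with earlier results of these data known.

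Genes with a mean of at least 10 were tested with limma 3.58.1 in R 4.3.3 (eBayes with a trend, pseudocount of 1, two-sided). The pseudocount understates changes of low genes. Both edgeR 4.0.16 and DESeq2 1.42.0 were run on the recovered reads as alternatives, beside other scalings, pseudocounts and filters and each library left out. Single libraries were compared by ratios with exact Clopper-Pearson 95% intervals, and 3 reads were taken as the floor. These intervals cover counting error only. List genes given with values are taken from up to 3 per list with the largest difference from P1 to 12 weeks and at least 100 normalized counts in a library. Any other is said to be named after its values were seen or outside this rule. Scripts were tested on simulated data. Coordinates and exon lengths are from GENCODE M21 (GRCm38, the same build as mm10).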

Additional observations from a re-analysis of the deposited data

Results flagged for a closer look

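The 6 cases flagged had opposite directions of the same contrast in 2 groups of 1 library each. They are not all such reversals. Angpt2, for example, had male minus female differences of 0.44 at P1 and -0.12 at 12 weeks, the latter with a ratio interval of 0.589 to 1.43, and was not flagged for that pair. None of these differences was tested, and no replicate stands behind them. From P1 to 2 weeks Pecam1 was lower in male (-0.11 on the log2 scale) and higher in female (0.11), a gap of -0.22. From 2 to 12 weeks Egfl7 was higher in male (0.29) and lower in female (-0.59), a gap of 0.88. Cdh5 was lower in male than in female at P1 (-0.33) and higher in male at 2 weeks (0.18) and at 12 weeks (0.14), gaps of -0.51 and -0.47. Angpt2 was higher in male at P1 (0.44) and lower at 2 weeks (-0.55), a gap of 0.99 that rests on 64 to 223 reads. Vegfa was higher in male at 2 weeks (0.19) and lower at 12 weeks (-0.52), a gap of 0.71. The P1 values of Pecam1, Cdh5 and Angpt2 involve the P1 female library, which held Y-linked transcripts.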

How the results depend on the processing

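Numbers of members called moved with the processing, and the cause was not tested. Where 1 library was left out, its own effect and the smaller number of libraries cannot be told apart. From P1 to 2 weeks the count of 1 became 2 with a pseudocount of 10, with DESeq2 or with no sex term, and 0 with all genes above a mean of 0 tested, a limma setting that called 0 of 27254 genes (3 members at an unadjusted p under 0.05), with 0 to 2 when single libraries were left out. From 2 to 12 weeks the count of 3 became 0 with all genes tested, which again called 0 of 27254 genes (4 members at an unadjusted p under 0.05), and 0 with no trend in eBayes, which called 1661 of 16720, with 0 to 4 without single libraries. From P1 to 12 weeks the count of 5 became 1 with all genes tested (4691 of 27254 called), with 1 to 5 without single libraries. Where leaving out a library left 1 library at an age, that library was assumed to vary like the others. Relative to the reference list, the count from P1 to 2 weeks became 2 with a pseudocount of 10 or no sex term (0 to 2 without single libraries), and that from 2 to 12 weeks was 0 to 4 without single libraries. At 1.5-fold 2 members differed between E18.5 and both P1 libraries (Vegfa and Plvap), and 1 between the 12-week libraries (Egfl7). The share of all genes at 1.5-fold was not computed, so these counts cannot be set against a background. The list counts that moved without single libraries are given beside them.

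Only differences that no test called changed sign, on the log2 scale. From P1 to 2 weeks Pecam1 (0.0004) was -0.0069 with edgeR and -0.0092 with DESeq2, and without single libraries Pecam1 spanned -0.0895 to 0.0903, Kdr -0.0366 to 0.2492 and Egfl7 -0.1438 to 0.5132. From 2 to 12 weeks upper-quartile scaling gave 0.0011 for Pecam1 and 0.0506 for Tie1, and equal totals -0.1133 for Kdr. Without single libraries Pecam1 spanned -0.1718 to 0.0080, Kdr -0.0285 to 0.1415, Tie1 -0.1238 to 0.0590, Egfl7 -0.4816 to 0.1870 and Angpt2 -0.6690 to 0.0402. From P1 to 12 weeks Pecam1 was 0.0287 with upper-quartile scaling, and Egfl7 was -0.0818 with equal totals and spanned -0.2969 to 0.3717 without single libraries. Equal totals put the median of all genes at -0.20 from 2 to 12 weeks and -0.15 from P1 to 12 weeks, against -0.03 in both as deposited. Depth limits Angpt2 most, with 38 to 228 reads per library.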
